A study of Mus musculus with 9 samples.

Results

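Oncogene responses were examined in the bi population of the mouse mammary epithelial line Comma-1D, which had been sorted as Sca-1 high and EpCAM high. The members are 3 of the 9 RNA-seq libraries of the series: bi MYC, transduced with an activated MYC oncogene, bi Her2, transduced with an activated Her2 oncogene, and bi control. The other 6 libraries are the same 3 arms (MYC, Her2 and control) of 2 further populations, B (Sca-1 high, EpCAM low) and L (Sca-1 low, EpCAM high). Cells of all arms were grown in low serum with EGF and insulin, so control cells also received a ligand of the EGF receptor. The labels do not say whether controls carried an empty vector, which species the transgenes came from, or whether arms were separate cultures. There is 1 library per population and arm, so a ratio within bi has no replicate and no test. Such ratios are given as log2 ratios of CPM (counts per 1 M counts of the library) after TMM scaling, with a prior count of 2, and "past 2-fold" describes their size alone.

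MYC is a transcription factor that binds E-box DNA as a dimer with MAX and is known for driving ribosome production, nucleotide synthesis and cell cycle entry. Her2, encoded by Erbb2, is a receptor tyrosine kinase of the EGF receptor family that signals through the RAS-ERK and PI3K-AKT pathways, and ERK signals raise AP-1 (Fos-Jun) transcription factors. In the mammary gland basal cells carry keratins 5 and 14 and contractile proteins, and luminal cells carry keratins 8 and 18.

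Totals were 53.4, 81.2 and 98.9 M reads in bi MYC, bi Her2 and bi control, and 46.9 to 75.6 M in the B and L libraries. Myc was at 188 CPM in bi MYC, 68.2 in bi Her2 and 92.5 in bi control, and Erbb2 at 74.4, 235 and 82.3 CPM in the same order, so each targeted gene was highest in the library named for it. Of 10 basal and 10 luminal marker genes, 9 each reached 1 CPM in a bi library. The basal markers summed to 6551 CPM in bi MYC, 4021 in bi Her2 and 4985 in bi control, the luminal markers to 235, 137 and 133 CPM. Of the defining luminal keratin genes Krt18 was at 80.5, 68.3 and 46.5 CPM and Krt8 at 3.31, 0.950 and 0.533 CPM. The 8 immune markers summed to 6.70, 5.70 and 3.51 CPM.

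The bi Her2 library stood apart in ways that touch every Her2 value below. The difference between gene length and effective length in long genes was 238 bases in this library and 183 to 200 bases in the other 8. Ribosomal RNA loci, a set in which Lars2 was counted, took 16.2% of its reads against 14.7% in bi MYC and 13.1% in bi control. The median log2 ratio of protein-coding genes was -0.24 for bi Her2 and -0.02 for bi MYC, while unconfirmed transcripts of the TEC class lay at 0.63 and 0.20 and small nucleolar RNAs at -1.04 and 0.25. A Her2 ratio of a protein-coding gene therefore has to be read against -0.24 and not against 0, and a weakly negative list median is at the level of all genes. The part of these library features in the Her2 values was not tested.

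Genes at 1 CPM or more in at least 1 bi library numbered 15281, of which 12742 were protein-coding. Among the protein-coding genes 868 (6.81%) were past 2-fold higher and 730 (5.73%) past 2-fold lower in bi MYC than in bi control. In bi Her2 297 (2.33%) were higher and 376 (2.95%) lower. Among all gene types the numbers were 1031 higher (6.75%) and 846 lower (5.54%) with MYC, and 684 higher (4.48%) and 553 lower (3.62%) with Her2. The larger Her2 number came with non-coding classes, since 195 of the 684 were TEC transcripts. Of the 12742 protein-coding genes 3.79% were past 2-fold higher and 5.66% lower in B MYC, and 5.26% and 6.87% in B Her2. In L MYC the shares were 3.34% and 4.03%, and in L Her2 5.92% and 4.20%. Counts of list members below have to be read against the shares of the same library.

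Taking genes past 2-fold with 1 oncogene and within 0.5 of 0 on the log2 scale with the other, 469 protein-coding genes were higher and 398 lower with MYC alone, and 106 were higher and 104 lower with Her2 alone. Both oncogenes gave higher levels of 52 genes and lower levels of 61. In opposite ways moved 127 genes that were higher with MYC and lower with Her2, and 52 that were lower with MYC and higher with Her2. The ratios to bi control share that library, so these class sizes do not show how independent the responses were. With each ratio centred on its protein-coding median, Her2 alone had 196 genes higher and 59 lower, both together 92 higher and 41 lower, and the opposite classes 84 and 64.

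**Figure D1:**
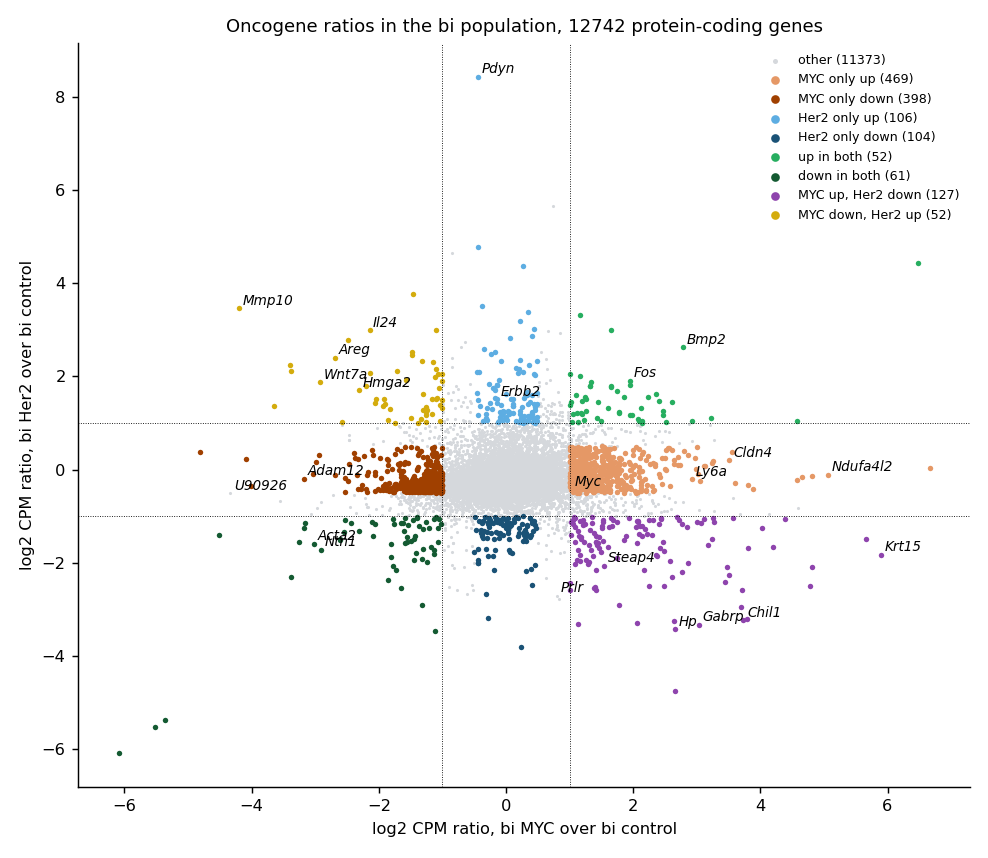
Log2 CPM ratio of bi MYC over bi control (x axis) against that of bi Her2 over bi control (y axis) for 12742 protein-coding genes, coloured by class with the class size in the legend, with dotted lines at 2-fold. The genes reach further along the MYC axis, both ratios share the control library, and named genes such as Mmp10 (upper left) and Chil1 (lower right) lie in the opposite quadrants.

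The genes lower with MYC and higher with Her2 include an EGF receptor ligand, secreted proteases, cytokines and growth regulators. Areg, which encodes amphiregulin, a ligand of the EGF receptor, was at 2.11 CPM in bi MYC, 72.8 in bi Her2 and 13.7 in bi control. Its level was lowest with MYC and highest with Her2, with log2 ratios of -2.69 and 2.41 against control. Mmp10, a stromelysin gene, had 4 reads in bi MYC, 1917 in bi Her2 and 184 in bi control, which is 0.0788, 21.9 and 1.96 CPM. Against control that is a ratio of 0.0402 (95% counting interval 0.0108 to 0.105) with MYC and 11.2 (9.61 to 13.1) with Her2. Both intervals cover counting error only and are far from 1.

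Hmga2, an architectural chromatin protein gene of embryonic and transformed cells, stood at 14.5 CPM in bi MYC, 234 in bi Her2 and 72.0 in bi control (log2 ratios -2.31 and 1.70). The same order held for Il24, a cytokine gene of the interleukin 10 family (0.374, 14.2 and 1.76 CPM). Wnt7a, a Wnt ligand gene, was at 0.690, 20.1 and 5.44 CPM, and Itga2, which encodes a collagen-binding integrin chain, at 3.86, 44.0 and 11.5 CPM. These 6 genes are the ones of this class with the largest smaller change of the pair, so their size follows from how they were picked.

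Outside that selection, and taken from gene lists, 2 metabolic enzymes had the same pattern at high levels. Odc1, the rate-limiting enzyme of polyamine synthesis and a classic MYC target, was at 64.6 CPM in bi MYC, 765 in bi Her2 and 266 in bi control, a log2 ratio of -2.04 with MYC and 1.52 with Her2. Ptgs2, the inducible cyclooxygenase gene, was at 47.4, 465 and 181 CPM (-1.93 and 1.36). In the list of metalloproteinases and inhibitors 22 members were measured, of which 4 were lower with MYC and higher with Her2. These were Mmp10, Mmp3 (4.99, 30.8 and 12 CPM), Mmp9 (1.02, 5.64 and 2.14 CPM) and the urokinase receptor gene Plaur (5.81, 35.5 and 16.4 CPM). Among all 12742 protein-coding genes 52 were in this class. In all, 2 members of the list were higher and 6 lower with MYC, and 4 were higher and 2 lower with Her2. The shares of all protein-coding genes were 6.81% and 5.73% with MYC, and 2.33% and 2.95% with Her2.

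In the other populations this class moved the same way more often than protein-coding genes at large. With Her2, 51 of the 52 genes (98.1%) were past 2-fold higher in L, where 5.92% of all protein-coding genes were, and 19 (36.5%) in B, where 5.26% were. With MYC, 34 (65.4%) were past 2-fold lower in B, against 5.66% of all, and 29 (55.8%) in L, against 4.03%. In B Her2 7 of the 52 genes (13.5%) were past 2-fold lower, where 6.87% of all protein-coding genes were. Mmp10 and Mmp3 were among them, since their log2 ratios with Her2 were -2.55 and -2.12 in B but 4.99 and 1.27 in L.

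The promoters of this class held the AP-1 motif more often than those of the other classes. The motif was searched as TGANTCA, which reads the same on both strands, in the 250 bases before each RefSeq start of a gene (build GRCm38.p6). A gene with several starts counted if any of them had the motif. The AP-1 motif was found in 14 of the 42 members with a promoter sequence (33.3%) and in 595 of 9976 protein-coding genes (5.96%). In the remaining classes the share ran from 2.67% to 10.8%. The E-box CACGTG, also the same on both strands and the motif that MYC-MAX prefers, was in 9.67% of all these promoters, 7.65% of those of genes higher with MYC alone and 8.62% of those lower with MYC alone. A match is a run of letters and does not show that a factor binds. The 4 promoters printed are those of named genes of the class with the AP-1 motif, in the gene's own direction 5′ to 3′, with the motif in capitals. They are Mmp10 at chr9:7502092-7502341 (plus strand), Mmp3 at chr9:7445572-7445821 (plus strand), Plaur at chr7:24462233-24462482 (plus strand) and Il11, a cytokine gene of the interleukin 6 family, at chr7:4778142-4778391 (minus strand).
Mmp10: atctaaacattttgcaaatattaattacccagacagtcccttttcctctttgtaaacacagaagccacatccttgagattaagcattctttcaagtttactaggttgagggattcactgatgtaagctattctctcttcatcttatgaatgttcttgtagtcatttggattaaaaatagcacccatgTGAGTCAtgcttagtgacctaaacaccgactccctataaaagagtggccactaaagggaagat
Mmp3: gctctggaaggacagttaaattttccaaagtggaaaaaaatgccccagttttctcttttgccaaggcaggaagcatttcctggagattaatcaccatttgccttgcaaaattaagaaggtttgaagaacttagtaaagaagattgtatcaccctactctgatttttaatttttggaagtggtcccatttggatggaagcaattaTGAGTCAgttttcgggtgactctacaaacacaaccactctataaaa
Plaur: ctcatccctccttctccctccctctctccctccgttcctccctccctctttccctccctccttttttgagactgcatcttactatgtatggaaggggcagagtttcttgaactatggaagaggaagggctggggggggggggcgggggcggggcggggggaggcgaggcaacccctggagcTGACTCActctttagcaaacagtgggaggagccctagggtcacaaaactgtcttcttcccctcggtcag
Il11: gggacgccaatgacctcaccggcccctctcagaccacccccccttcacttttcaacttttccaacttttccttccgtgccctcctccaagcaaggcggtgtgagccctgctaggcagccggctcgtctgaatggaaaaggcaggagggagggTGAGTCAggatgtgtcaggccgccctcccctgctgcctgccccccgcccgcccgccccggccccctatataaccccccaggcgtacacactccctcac

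**Figure D2:**
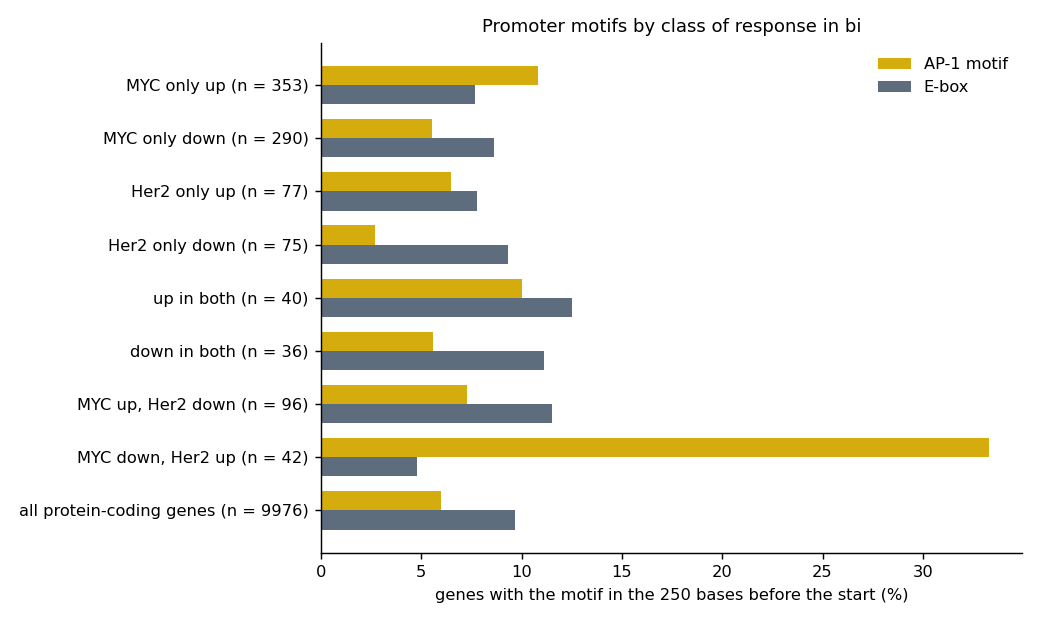
Share of genes (x axis, percent) with an AP-1 motif or an E-box in the 250 bases before any of their RefSeq starts, by class of response in bi (y axis, number of genes with a promoter sequence in brackets), with all protein-coding genes of the table in the lowest row. The AP-1 bar of the class lower with MYC and higher with Her2 reaches 33.3%, against 5.96% of all genes.

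The reverse class, higher with MYC and lower with Her2, holds secreted defence and milk proteins. Chil1, a secreted chitinase-like lectin gene, was at 78.2 CPM in bi MYC, 0.595 in bi Her2 and 5.85 in bi control (log2 ratios 3.73 and -3.23). Ltf, which encodes the iron-binding milk protein lactoferrin, was at 72.8, 1.30 and 6.40 CPM (3.50 and -2.27). Hp, the haptoglobin gene, was at 16, 0.206 and 2.52 CPM (2.65 and -3.43). In each of the 3 genes the control library lay between the others. Gabrp, a GABA receptor subunit gene of luminal progenitors, the sodium-glucose transporter gene Slc5a1 and the collagen VI gene Col6a2 also belonged here, with MYC ratios of 3.03, 2.64 and 2.25 and Her2 ratios of -3.33, -3.25 and -2.49.

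The list of acute-phase and innate defence genes had 23 measured members. Among all protein-coding genes 6.81% were past 2-fold higher and 5.73% lower with MYC, and 2.33% higher and 2.95% lower with Her2. With MYC 13 members of the list were past 2-fold higher and none lower (median log2 ratio 1.30, against -0.02 for all protein-coding genes). With Her2 none was higher and 9 lower (median -0.94, against -0.24), and the same 9 genes were among the 13. Besides Chil1, Ltf and Hp they include Lcn2, which encodes the siderophore-binding protein lipocalin 2, at 316 CPM in bi MYC, 32.3 in bi Her2 and 128 in bi control. Wfdc18, a whey acidic protein family gene, was at 200, 11.6 and 37.3 CPM, and the metalloreductase gene Steap4 at 204, 16.7 and 69.9 CPM. With DESeq2 size factors, total counts or centring, 13 members were higher with MYC and 9 or 10 lower with Her2.

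Outside bi the list was higher with MYC in L and mixed in B. In L MYC 14 members were past 2-fold higher and 3 lower (median 1.26), and in B MYC 5 were higher and 9 lower (median -0.30). With Her2 16 members were past 2-fold lower and 1 higher in B (median -1.42), and 9 were lower and 3 higher in L (median -0.74). Ltf was among those higher in L, at a Her2 ratio of 1.07. Chil1 showed the split, with MYC log2 ratios of 3.73 in bi and 1.91 in L but -2.61 in B. For the whole class of 127 genes, MYC gave the same direction past 2-fold in 55.9% in L and 18.9% in B, and the opposite direction in 28.3% in B, where 5.66% of all protein-coding genes were past 2-fold lower.

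Complement and interferon lists had a similar shape at smaller sizes. Of 13 measured complement genes 6 were past 2-fold higher with MYC, and with Her2 1 was higher and 3 lower. Among all protein-coding genes 6.81% were higher with MYC, and 2.33% were higher and 2.95% lower with Her2. C1s1, a protease gene of the first complement component, was at 60.8 CPM in bi MYC, 5.72 in bi Her2 and 12.2 in bi control. Of 31 interferon response genes 11 were higher with MYC (median 0.55) and 3 lower with Her2 (median -0.52), and on deposited TPM the MYC count was 7. Oasl1, an oligoadenylate synthetase-like gene, was at 7.37, 1.08 and 1.70 CPM, and Ifi27 at 20.9, 3.82 and 6.71 CPM. L MYC had 20 members higher and none lower, and B MYC had 1 higher and 2 lower. Among antigen presentation genes 6 of 20 were higher with MYC, where 6.81% of all protein-coding genes were, at a list median of 0.07. These include the peptide transporter genes Tap2 (11.6, 2.51 and 3.20 CPM) and Tap1 (8.79, 2.69 and 3.17 CPM).

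Cell cycle genes were lower with MYC and near the level of all genes with Her2. Of 49 genes of DNA replication and the G1/S transition 42 were past 2-fold lower in bi MYC and none higher, with a median log2 ratio of -1.48. Cdc6, which loads the replicative helicase, was at 9.54 CPM in bi MYC, 36.5 in bi Her2 and 45.7 in bi control (-2.26 and -0.32). Ccne2, which encodes cyclin E2, was at 4.96, 20.9 and 22.6 CPM, and Rrm2, the small subunit of ribonucleotide reductase, at 66.7, 188 and 243 CPM. In each of them bi MYC was far below both others, which lay close together.

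Of 58 mitosis and G2/M genes 41 were past 2-fold lower with MYC (median -1.12), among them Foxm1, a transcription factor gene of the G2/M programme, at 57.8, 117 and 176 CPM. With Her2 no member of either list passed 2-fold, and the medians of -0.40 and -0.41 became -0.15 and -0.17 after centring. In B Her2 15 of the G2/M genes were past 2-fold lower (median -0.70), while 1 G1/S gene was higher (median 0.31), and in L Her2 no member of either list passed 2-fold. Cell numbers were not analysed here, and in a bulk library fewer cycling cells and less of these transcripts per cell cannot be told apart.

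B and L MYC libraries leaned the same way with smaller medians. The G1/S list had 29 members past 2-fold lower in L (median -1.08) and 10 in B (median -0.65), and the G2/M list 21 in L (-0.94) and 4 in B (-0.63). Genes of ribosome biogenesis, the most typical MYC targets, were not higher in bi MYC, where 5 of 55 were past 2-fold lower and the median was -0.56. Of all protein-coding genes 5.73% were past 2-fold lower in bi MYC. Tcof1, which supports ribosomal DNA transcription, was at 48.8 CPM in bi MYC, 81.8 in bi Her2 and 121 in bi control. The median of the list was -0.56 in L MYC and -0.0036 in B MYC. Nucleotide synthesis genes had 10 of 27 members lower with MYC in bi (median -0.90). Cytosolic ribosomal protein genes, at a median of 0.18 with MYC, had no member of 60 past 2-fold.

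**Figure D3:**
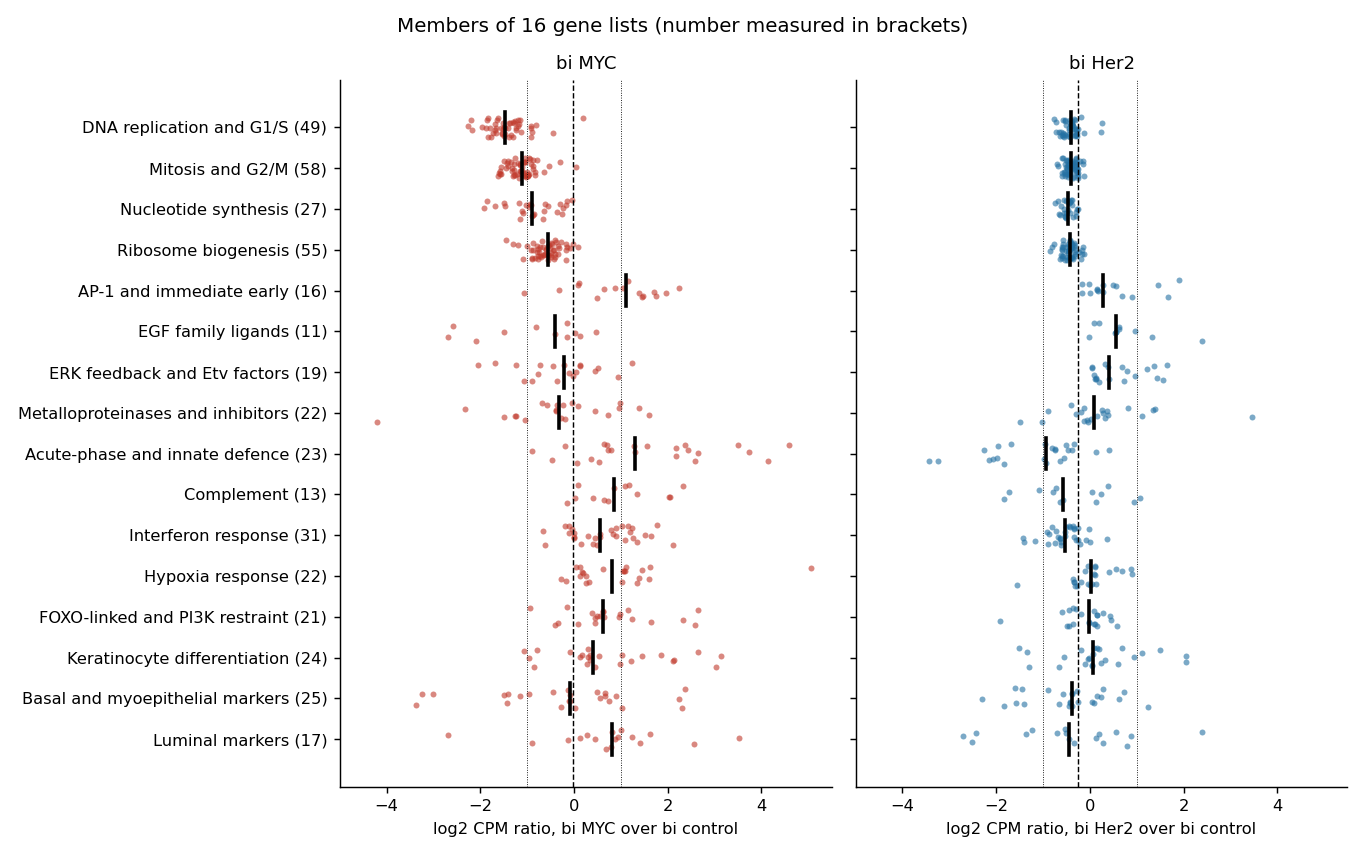
Log2 CPM ratio to bi control (x axis) of each measured member of 16 gene lists (y axis, number measured in brackets) for bi MYC (left) and bi Her2 (right). Black bars are list medians, dotted lines mark 2-fold and the dashed line is the median of all protein-coding genes, -0.02 for MYC and -0.24 for Her2. The G1/S list lies at a median of -1.48 with MYC, and the acute-phase list at 1.30 with MYC and -0.94 with Her2.

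Genes higher with MYC alone included a stem cell antigen, keratinocyte genes and hypoxia genes. The Sca-1 gene Ly6a stood at 139 CPM in bi MYC, 15.9 in bi Her2 and 18.4 in bi control, so the MYC library alone was high. Its MYC ratio of 2.92 compares with 0.95 in B and 0.97 in L, and Sca-1 was also 1 of the 2 antigens of the sort. The Her2 ratio of Ly6a was -0.21 in bi, -1.57 in B and -1.45 in L. Ndufa4l2, a hypoxia-inducible mitochondrial protein gene, was at 18.8, 0.492 and 0.533 CPM (5.06 and -0.11). Cldn4, a tight junction gene of luminal cells, was at 42.1, 4.21 and 3.66 CPM (3.51 and 0.20). The receptor gene Notch3 was at 24.9, 3.72 and 3.13 CPM and the cornified envelope gene Sprr1a at 40.3, 4.59 and 4.92 CPM. In L the MYC and Her2 ratios of Cldn4 were 2.43 and 2.60, and those of Sprr1a -1.27 and 3.47. Notch3 had 1.68 and 0.59 there, and Ndufa4l2 1.38 and -0.27. In B the ratios were 0.89 and 1.10 for Notch3, 0.01 and -1.84 for Ndufa4l2 and -0.50 and -5.31 for Sprr1a. Cldn4 had at most 7 reads in each B library.

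Krt15, a basal keratin gene, had the highest MYC ratio of the named genes, at 113 CPM in bi MYC, 0.504 in bi Her2 and 1.88 in bi control (5.89 and -1.84). B MYC and L MYC, at 52.2 and 10.7 CPM, were also above their Her2 and control libraries. Enpp2, which encodes the lysophospholipase autotaxin, was at 38.4, 1.54 and 3.21 CPM in bi, and the whey acidic protein gene Wfdc12 at 12.3, 0.0572 and 0.213 CPM.

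The hypoxia list had 11 of 22 members past 2-fold higher in bi MYC and none lower (median 0.82), while B MYC and L MYC each had 1 higher and 1 lower (medians 0.18 and 0.12). Besides Ndufa4l2 the highest ratios were those of Egln3, a prolyl hydroxylase gene of oxygen sensing, at 35.1 CPM in bi MYC, 21.3 in bi Her2 and 11.5 in bi control, and Car12, a carbonic anhydrase gene, at 356, 91.5 and 117 CPM. On deposited TPM the count was 7. Slc2a1, which encodes the glucose transporter GLUT1, was at 360, 175 and 132 CPM. In bi 5 of 24 glycolysis genes were higher with MYC, with Aldoc at 49.0, 14 and 11.1 CPM. Of all protein-coding genes 6.81% were past 2-fold higher in bi MYC.

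Of 21 FOXO-linked genes 6 were higher with MYC in bi, 7 in B and 3 in L. Of all protein-coding genes 6.81%, 3.79% and 3.34% were past 2-fold higher with MYC in the same populations. Bmf, which encodes a pro-apoptotic BCL2 family protein, was at 18.1 CPM in bi MYC, 2.34 in bi Her2 and 2.99 in bi control, with MYC ratios of 2.58 in bi, 1.87 in B and 2.30 in L. Mxd4, which encodes a MAX partner that opposes MYC, was at 87.3, 13.7 and 19 CPM, with MYC ratios of 2.20, 1.22 and 1.49 in the same populations. Both genes were high in the MYC library of every population. Trp53inp1, a p53 target gene, was at 72.5, 16.7 and 12.6 CPM in bi, with MYC ratios of 2.52 in bi, 1.56 in B and 1.25 in L.

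The keratinocyte list was higher with MYC in bi and lower with MYC outside it. In bi MYC 9 of 24 members were past 2-fold higher and 1 lower (median 0.40), in B MYC 1 was higher and 12 lower (median -0.89) and in L MYC none was higher and 11 lower (median -0.86). The shares of all protein-coding genes higher and lower with MYC were 6.81% and 5.73% in bi. They were 3.79% and 5.66% in B, and 3.34% and 4.03% in L. Krt16, a stress keratin gene, was at 183 CPM in bi MYC, 33.5 in bi Her2 and 29.2 in bi control, a ratio of 2.64, against -2.43 in B and -0.78 in L. Dsc3, a desmosomal cadherin gene, was at 164, 60.2 and 55.9 CPM, with MYC ratios of 1.55 in bi, -0.77 in B and -0.95 in L. Id3, an inhibitor of bHLH factors and a BMP target, was at 227, 72.2 and 53.4 CPM (2.09 in bi, 0.09 in B, -0.91 in L).

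Genes lower with MYC alone included 33 of 58 measured members of the G2/M list and 28 of 49 of the G1/S list. They also included 6 of 27 of the list of collagens, matricellular proteins and proteoglycans. Of all protein-coding genes 398 of 12742 were in this class. Tnc, which encodes the matrix protein tenascin C, was at 159 CPM in bi MYC, 1069 in bi Her2 and 830 in bi control (-2.39 and 0.36). Adam12, a membrane metalloproteinase gene, was at 7.55, 59.8 and 68.4 CPM (-3.18 and -0.19), and Timp1, a metalloproteinase inhibitor gene, at 13.7, 63.7 and 69.2 CPM. The connexin 26 gene Gjb2 was at 2.92, 28.3 and 22.6 CPM. Of these 4 genes Gjb2 and Adam12 were past 2-fold lower with MYC in both B and L, as was Tnc (-1.22 and -1.03), and Timp1 in L (-1.91) with -0.94 in B. The pattern of MYC alone was that of bi. In B Her2 Adam12, Gjb2 and Tnc were also past 2-fold lower (-3.37, -2.25 and -1.73), with Timp1 at -0.50. In L Her2 Tnc and Timp1 were past 2-fold higher (1.98 and 2.15), with Adam12 at 0.49 and Gjb2 at -0.10.

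Among 11 measured EGF family ligands 4 were lower with MYC and none higher, where 5.73% of all protein-coding genes were lower and 6.81% higher. The 4 include Areg and Ereg, which encodes epiregulin, at 10.2 CPM in bi MYC, 119 in bi Her2 and 60.8 in bi control, and Epgn (epigen), at 4.18, 26.1 and 18.0 CPM. With Her2 Areg and Hbegf (12.9, 56.3 and 22.5 CPM) were past 2-fold higher, where 2.33% of all protein-coding genes were. U90926, an uncharacterised transcript, had the lowest MYC ratio of the named genes, at 1.79, 25.8 and 36.8 CPM (-4.34).

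Genes higher with Her2 alone were fewer. Pdyn, which encodes the opioid precursor prodynorphin, had no read in bi MYC, 1221 in bi Her2 and 1 in bi control, a Her2 ratio of 1311 (95% counting interval 235 to 51830). In L it was at 143 CPM with Her2 and at 0 and 0.013 with MYC and control, while in B Her2 it was at 0.0383. Gsta1, a glutathione transferase gene, was at 5.46, 29.8 and 4.08 CPM in bi, and its close paralogs may share reads with it. Thsd4, a matrix protein gene, was at 3.68, 13.2 and 3.05 CPM, and the neutrophil chemokine gene Cxcl2 at 3.51, 14.3 and 3.15 CPM. The mitochondrial leucyl-tRNA synthetase gene Lars2 was at 160, 1043 and 182 CPM. Ribosomal RNA loci, a set in which Lars2 itself was counted, took 14.7%, 16.2% and 13.1% of reads in these libraries. The part of those loci in the level of Lars2 was not tested.

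Not in that class because of intermediate MYC ratios were Grik3, a glutamate receptor gene, at 1.38 CPM in bi MYC, 63.8 in bi Her2 and 2.50 in bi control, and Clcf1, a ligand gene of the interleukin 6 family, at 11.5, 95.7 and 20.7 CPM. The ERK feedback list had 5 of 19 members past 2-fold higher with Her2 (median 0.41, against -0.24 for all protein-coding genes) and 4 lower with MYC. Among all protein-coding genes 2.33% were higher with Her2 and 5.73% lower with MYC. Ier3, an immediate early gene, was at 113, 482 and 155 CPM. L Her2 had 9 members higher and B Her2 1 higher and 2 lower. The shares of all protein-coding genes were 5.92% higher in L Her2, and 5.26% higher and 6.87% lower in B Her2. Cdkn1a, which encodes the CDK inhibitor p21, was at 26.1, 68.5 and 24.1 CPM.

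Lower with Her2 alone were the chemokine gene Cxcl12, at 21.9 CPM in bi MYC, 5.88 in bi Her2 and 20.4 in bi control (0.10 and -1.79), and Mmp2, a gelatinase gene, at 25.9, 10.6 and 29.6 CPM (-0.19 and -1.48). The TGF-beta co-receptor gene Tgfbr3 was at 99.8, 32.7 and 87.6 CPM. Lower still with Her2 were genes whose MYC ratio was not near 0, namely Prlr, the prolactin receptor gene, at 21.5, 1.85 and 12.3 CPM, Rassf4 at 89.0, 23.2 and 129 CPM and the collagen V gene Col5a2 at 64.4, 26.4 and 114 CPM. Centring would move each of these Her2 ratios up by 0.24, which leaves all 6 past 2-fold lower.

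Genes higher with both oncogenes included Bmp2 and some immediate early genes, and genes lower with both included Acta2, Tagln and Myl9 of the contractile apparatus. Bmp2, a bone morphogenetic protein gene, was at 16.4 CPM in bi MYC, 14.6 in bi Her2 and 2.35 in bi control (2.79 and 2.62). Fos was at 74.2, 71.7 and 19.1 CPM and Egr3 at 21.8, 20.7 and 6.45 CPM. In these genes both oncogene libraries were about level and the shared control alone was low. Of 16 measured AP-1 and immediate early genes 9 were past 2-fold higher and 1 lower with MYC (median 1.10), and 3 were higher with Her2, all of them among the 9. In B MYC no member was higher and 2 lower (median -0.04), and in L MYC 1 was higher and 1 lower (median 0.40). The shares of all protein-coding genes were 6.81% and 5.73% in bi MYC and 2.33% higher in bi Her2. They were 3.79% and 5.66% in B MYC, and 3.34% and 4.03% in L MYC. Fosl1, an AP-1 gene downstream of ERK, was the member lower with MYC, at 10.0, 33.9 and 21.2 CPM.

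Acta2, the smooth muscle actin gene of myoepithelial cells, was at 12.9 CPM in bi MYC, 34.8 in bi Her2 and 105 in bi control (-3.02 and -1.59). Tagln (transgelin) was at 1.97, 6.42 and 19.1 CPM and the myosin light chain gene Myl9 at 0.394, 0.859 and 4.37 CPM. Ntn1, which encodes the guidance cue netrin 1, was at 5.79, 13.3 and 43.9 CPM. In all 4 genes control was highest and MYC lowest. Of other smooth muscle genes at low levels, Cnn1 had this order, at 0.453, 0.790 and 1.26 CPM. Mylk, at 1.62, 0.801 and 1.09 CPM, and Myh11, at 0.236, 0.195 and 0.245 CPM, did not. In B Acta2, Tagln, Myl9 and Ntn1 were past 2-fold lower with both oncogenes, while in L MYC Acta2 and Myl9 had ratios of 0.93 and 2.18. The basal keratin genes Krt5 (2147, 1728 and 2311 CPM) and Krt14 (2421, 1284 and 1543 CPM) were within 2-fold of control with both oncogenes. Of the 25 basal list members 4 were lower with both oncogenes. In all, 4 were higher and 7 lower with MYC, and 1 was higher and 6 lower with Her2. Of all protein-coding genes 6.81% were higher and 5.73% lower with MYC, and 2.33% higher and 2.95% lower with Her2. The median of the list was -0.09 with MYC and -0.39 with Her2.

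**Figure D4:**
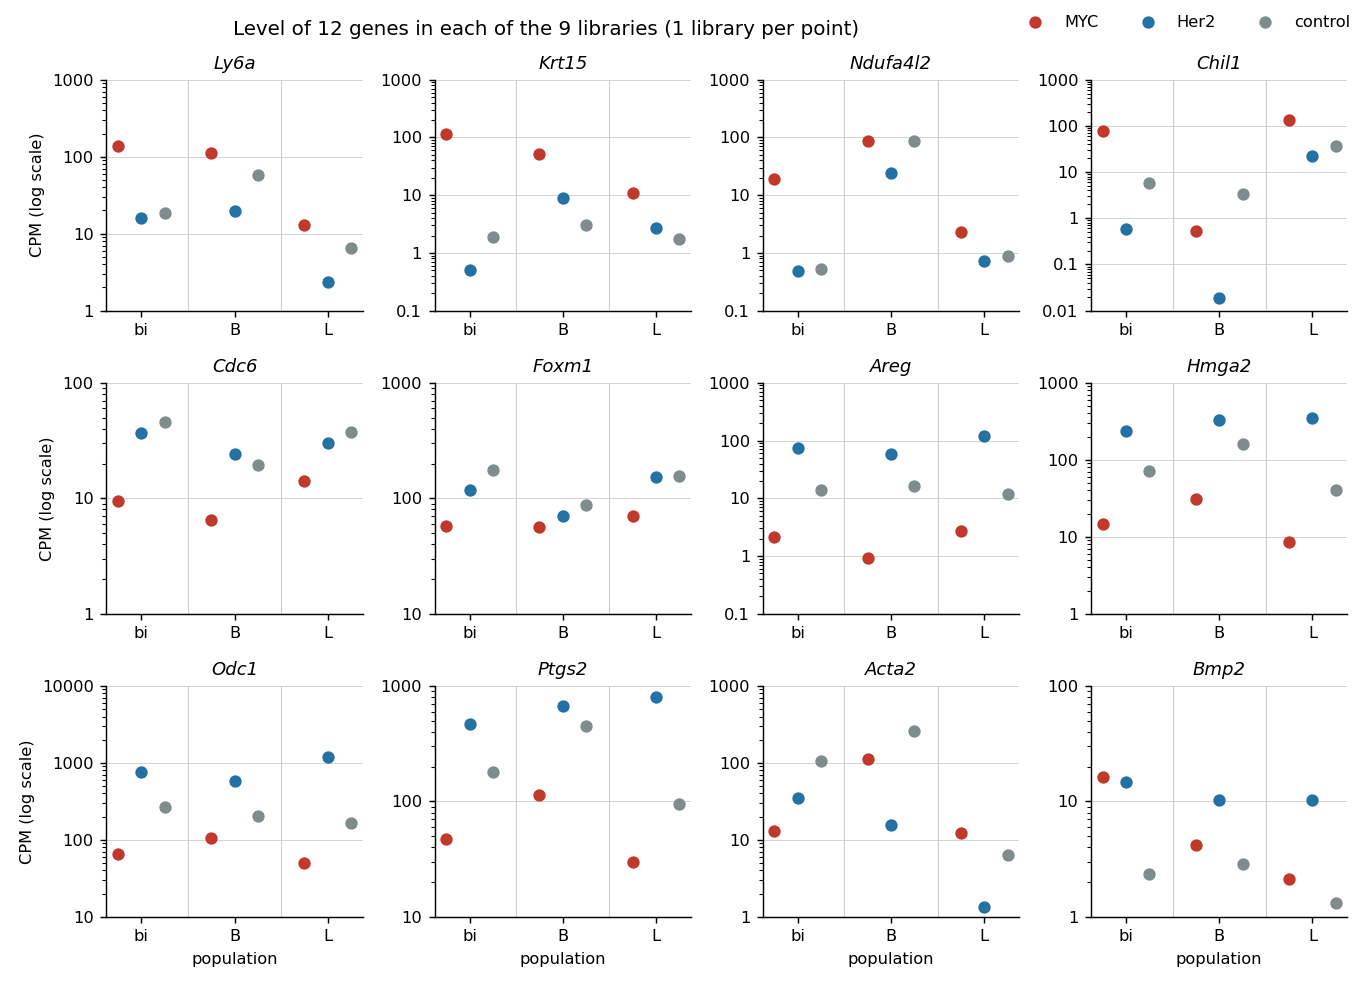
CPM on a log axis (y axis) of 12 genes in each of the 9 libraries, with the populations bi, B and L along the x axis and, within each, the MYC, Her2 and control library from left to right, 1 library per point. Areg, Hmga2 and Odc1 are lowest with MYC and highest with Her2 in all 3 populations, while Acta2 is highest in control in bi and B and in MYC in L.

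Over all genes, those past 2-fold in bi were past 2-fold the same way in L more often than in B. Of the 868 protein-coding genes higher with MYC in bi, 32.6% were so in L (all protein-coding genes 3.34%) and 23.2% in B (3.79%), while 13.8% were past 2-fold lower in B. Of the 730 lower with MYC, 41.8% were so in L (4.03%) and 30.7% in B (5.66%). Of the 297 higher with Her2, 54.2% were so in L (5.92%) and 23.6% in B (5.26%). Of the 376 lower with Her2, 46.3% were so in L (4.20%) and 37.8% in B (6.87%). The genes higher with both oncogenes recurred least with MYC, at 10 of 52 in L, 6 in B and none in B and L together. B and L have controls of their own, so these shares have no library in common with the ratios of bi.

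**Figure D5:**
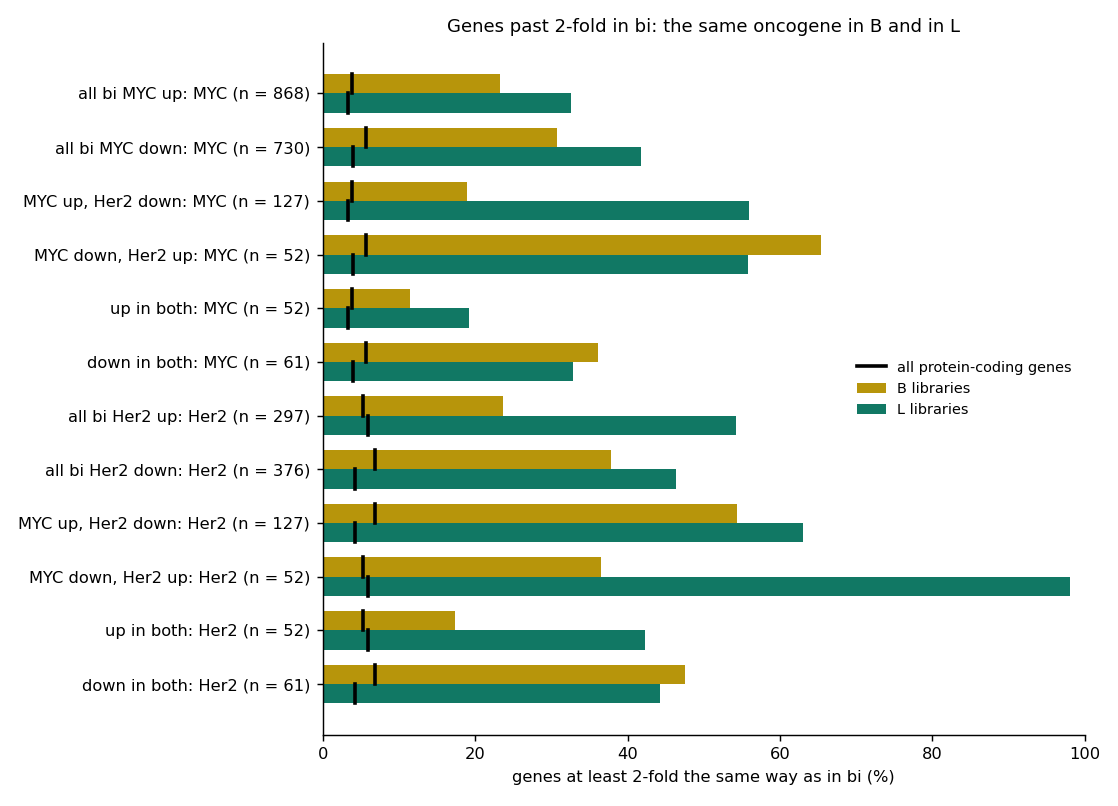
Share of the protein-coding genes past 2-fold in bi (x axis, percent) that were past 2-fold the same way with the same oncogene in the B and in the L libraries, by class and oncogene (y axis, number of genes in brackets). Black ticks give the share of all protein-coding genes past 2-fold that way. The class lower with MYC and higher with Her2 reaches 98.1% in L Her2, and the genes higher with both reach 11.5% in B MYC.

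The B and L libraries alone allow a test of the average oncogene effect with population as a block. It was an edgeR quasi-likelihood test with 2 residual degrees of freedom, Benjamini-Hochberg adjusted over 23441 genes. The ranking of genes to name used bi ratios, but the gene lists were chosen with earlier results of these data known. The test is therefore not fully independent of the choice of genes. With MYC 8 genes (0.0341%) passed, 6 higher and 2 lower, at 1574 with an unadjusted p under 0.05. Krt15 (log2 fold change 3.37, SE 0.40, adjusted p = 0.0220) and U90926 (-4.41, SE 0.54, adjusted p = 0.0231) were among them. Myc itself did not pass with MYC (1.32, SE 0.26, adjusted p = 0.281). With Her2 125 genes (0.533%) passed, 63 higher and 62 lower, at 2100 with an unadjusted p under 0.05. The named genes that rose were Wnt7a (4.92, SE 0.37, adjusted p = 0.00161), Cdkn1a (2.31, SE 0.30), Erbb2 (2.41, SE 0.37), Areg (2.53, SE 0.42), Bmp2 (2.41, SE 0.41), Thsd4 (1.98, SE 0.31), the granulocyte growth factor gene Csf3 (2.32, SE 0.35) and the kallikrein gene Klk6 (5.25, SE 0.78). Klk6 turned negative without L control or without L Her2. Those that fell include Hp (-5.34, SE 0.71, adjusted p = 0.0253), Steap4 (-4.84, SE 0.73), Acta2 (-3.33, SE 0.48), Col5a2 (-2.51, SE 0.45) and the matricellular gene Postn (-6.72, SE 1.22, adjusted p = 0.0451). Dsc3 also fell (-1.64, SE 0.25, adjusted p = 0.0299) but had a Her2 ratio of 0.11 in bi. Ly6a fell too (-1.52, SE 0.25, adjusted p = 0.0381), while its Her2 ratio of -0.21 in bi was near the protein-coding median of -0.24. The other named genes that passed had the same sign in bi. The Her2 count was 13 without B control, 72 without L MYC, 76 without L control, 560 without L Her2 and 798 without B Her2. The MYC count was 0 without B control, 5 without L MYC, 26 without L control, 347 without L Her2 and 367 without B Her2. Wnt7a and Hp passed whichever library was left out. Without B control, Krt15, U90926, Acta2, Steap4, Postn, Erbb2, Cdkn1a, Bmp2, Col5a2, Csf3, Dsc3 and Thsd4 no longer passed, and Areg no longer passed without L control or without L MYC.

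Odc1 (2.29, SE 0.45, adjusted p = 0.0575) and Hmga2 (2.18, SE 0.47, adjusted p = 0.0800) did not pass with Her2, nor did Areg with MYC (-3.12, SE 0.44, adjusted p = 0.0655). The difference between the effect in bi and the mean effect in B and L was tested in a fit of all 9 libraries whose spread comes from B and L (2 residual degrees of freedom, 23834 genes). For MYC no gene passed, with 371 at an unadjusted p under 0.05 and 3 calls by DESeq2. For Her2 1 gene (0.0042%) passed, the predicted gene Gm10259, with 1042 at an unadjusted p under 0.05 and 17 calls by DESeq2. Krt16, Dsc3 and the hypoxia and immediate early genes described above were therefore not shown to respond otherwise in bi. In simulated data the test for MYC found 0% of 2-fold and 5% of 4-fold differences. The spread set in that simulation came from a fit without separate terms for bi, unlike the spread of the test. What the test would find under its own spread was not simulated. The lack of a call thus does not show that responses were alike. For Dsc3 the difference was 2.41 (SE 0.42, adjusted p = 0.737) with MYC, and for Ly6a 1.96 (SE 0.42, adjusted p = 1).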

How the data were processed

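Each deposited table lists genes with a length, an effective length, a TPM and an estimated count of reads, per the file headers. Salmon 0.9.1 and mm10 are named in the submitters' processing notes, and the annotation release is not given in the sources used here. Libraries were stranded and ribosomal-RNA depleted per the labels' protocols, while the molecule label reads polyA RNA. RNA came from either of 2 kits, and which library had which is not given.

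All main values use the deposited estimated counts, rounded to whole numbers for the fits. Symbols were joined by identifier (54281 genes, 174 without a symbol). TMM scaling and model fits were run with edgeR 4.0.16 under R 4.3.3. Called means at least 2-fold between 2 libraries, at 1 CPM or more in a bi library. Fits used filterByExpr (minimum count 10, minimum total 15) and an adjusted p under 0.05, and were tested on simulated data. For MYC in B and L, 6% of simulated 2-fold and 91% of 4-fold changes were found, and 10 of 107 calls were false. For the difference of bi from B and L, 0% and 5% were found, and 4 of 9 calls were false. The spread set in that simulation came from a fit without separate terms for bi. DESeq2 1.42.0 and the deposited TPM (pseudocount 0.1) served as alternatives. With 1 library per group and population as a block, p-values of the B and L fit measure how far the arm differences disagree between B and L. No spread between replicates enters.

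The members, the 53 gene lists and the classes were chosen with earlier results of these data known. Named were Myc, Erbb2, Ly6a and Epcam, the 10 largest rises and falls per oncogene at 10 CPM or more (no predicted or RNA genes), 6 genes per class, and up to 3 members per list and direction, from which the text takes a part. Krt5, Krt14, Krt18, Mylk, Myh11 and Cnn1 are cell type markers. The genes listed for the AP-1 motif were taken from the named ones. Promoter sequences are RefSeq's (GRCm38.p6).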

Additional observations from a re-analysis of the deposited data

Results flagged for a closer look

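For Gm10259, a predicted gene, the effect of Her2 in bi differed from its mean effect in B and L by -21.73 on the log2 scale (SE 2.08, edgeR adjusted p = 0.0296). It had 0 reads in bi MYC, 0 in bi Her2 and 390 in bi control, against 38 in B Her2 and 332 in L Her2 and none in the B and L controls. The size of the fitted value depends on libraries at 0, its reads could be split with a near-identical copy, and this was not tested. It was the only difference between populations that passed in the fit of 9 libraries, and without the B control library none passed.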

How the results depend on the processing

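Bi ratios rest on 1 library each, and no alternative replaces a replicate. Of 308 named values past 2-fold in bi, 276 stayed past 2-fold the same way under every alternative. Counts moved as follows, in the order of all genes higher and lower with MYC, then higher and lower with Her2. A minimum of 10 CPM gave 389 (higher with MYC), 97 and 200, no minimum 3599, 2755, 3856 and 1630, deposited TPM 1562 (lower with MYC) and 1526 (higher with Her2), and protein-coding genes alone 297 (higher with Her2). Centring, chosen after seeing the data, gave 1174 and 334 with Her2, and 226 lower among protein-coding genes.

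MYC alone, higher, had 231 genes at 10 CPM and 1579 with no minimum. MYC alone, lower, had 1261 with no minimum and 821 on TPM. Her2 alone, higher, had 511 with total counts, 35 at 10 CPM, 1573 with no minimum, 628 on TPM, 106 protein-coding, 577 centred and 196 with both. Her2 alone, lower, had 126 with total counts, 61 at 10 CPM, 540 with no minimum, 104 protein-coding, 112 centred and 59 with both. Higher in both had 10 at 10 CPM, 967 with no minimum, 324 on TPM, 52 protein-coding and 163 centred. Lower in both had 36, 505, 188, 61 and 63 in that order, and 41 centred and protein-coding. MYC higher with Her2 lower had 55 at 10 CPM, 87 centred and 84 centred and protein-coding. MYC lower with Her2 higher had 27 at 10 CPM, 167 with no minimum and 180 on TPM.

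In B and L, DESeq2 size factors gave 15 calls for MYC and 314 for Her2, no filter 441 and 1014, and the DESeq2 Wald test 111 and 434. Leaving out 1 library gave 0 to 367 and 13 to 798. For the difference of bi from B and L the same settings gave 3 and 14, 83 and 101, and 3 and 17, and leaving out 1 library 0 to 73 and 0 to 177. Klk6 with Her2 in B and L (5.25) ran from -3.74 to 5.55 when 1 library was left out, and turned negative without L control and without L Her2. The cause was not tested. No paired analysis was possible because each population and arm has 1 library and population is already a block.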
